A study of Homo sapiens with 12 samples.

Results

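The 30 genes described here encode enzymes of cholesterol and fatty acid synthesis and the proteins that regulate these pathways. They were chosen by symbol, by a rule that uses no measured value, but with earlier results of these data known. All 30 symbols were present in the deposited table, on 33 of its 37951 identifiers, and rows that share a symbol were summed. All 30 passed the filter on low counts, as did 17047 of the 35940 symbols in the table.

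RNA was sequenced from 12 libraries of ESI017 SOX2::mCitrine, a human embryonic stem cell line with a fluorescent reporter for SOX2, a transcription factor of pluripotent and neural cells. Colonies confined to micropatterned coverslips, which fix the size and shape of a colony, were kept for 3 days in N2B27, a serum-free medium. The control colonies received N2B27 alone (2 libraries), and the treated colonies received FGF8 (200 ng/ml) in N2B27 together with WNT3A (100, 300 or 1000 ng/ml). After dissociation a cell sorter split each treated sample into a SOX2-positive and a SOX2-negative gate, with 2 libraries for each gate at 100 and 1000 ng/ml and 1 library for each gate at 300 ng/ml. The labels name no gate for the control. Replicate 2 of a group is another biological repeat of the experiment, so the p-values rest on the spread between repeats of 1 line. The series title names the interpretation of WNT in geometrically confined cells, from posterior patterning to germ layers, as its subject.

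Cholesterol synthesis joins acetyl-CoA units into mevalonate, turns mevalonate into isoprenoids, and joins isoprenoids into squalene, which is closed into lanosterol and trimmed step by step to cholesterol. Fatty acid synthesis draws on the same acetyl-CoA: ACACA carboxylates it to malonyl-CoA, FASN builds palmitate, and elongases and desaturases modify the product. The transcription factors SREBF1 and SREBF2 are escorted by SCAP to the Golgi for cleavage when membrane sterol is low, and INSIG1 retains SCAP in the endoplasmic reticulum when it is high.

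Cleaved SREBF proteins are known to act beside NF-Y, which binds the CCAAT box, and SP1, which binds the GC box, so the bases before the start sites of the 30 genes were searched for these letters. RefSeq windows on GRCh38.p14 were used, with the 250 bases before each start and both strands. FASN, FDFT1 and SQLE had no entry, which leaves 27 genes. CCAAT was found in 20 of the 27 (74.1%), against 37% of 27305 genes with a window. These 27305 were not limited to genes that passed the filter on low counts, so the shares are not matched for expression. GGGCGG was found in 26 of the 27 (96.3%), against 46.2% of all. The sterol element core CACNCCAC was found in 6 (22.2%), which were IDI1, SC5D, INSIG1, SREBF2, ACACA and SCD, against 5.89% of all. The longer TCACNCCAC, which contains the core, was found in SREBF2 alone (3.7%), against 1.09% of all. A gene with several windows counts once if any window matches, the searched letters were settled with match counts in view, and a match is a description of letters, not of binding.

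The stretches of 6 of these windows that lie in no GENCODE 29 exon are printed below, 5′ to 3′ on the strand of the gene, to show where the CCAAT letters lie in some of the genes described below. They were picked, with the matches known, from the 20 genes with CCAAT; PMVK, CYP51A1, SREBF1, SCAP, ELOVL6, FADS1 and FADS2 had none in these windows. They span MVD at chr16:88663162-88663297 (minus strand), MSMO1 at chr4:165327419-165327622, NSDHL at chrX:152830813-152830966, DHCR7 at chr11:71448436-71448643 (minus strand), INSIG1 at chr7:155297628-155297775 and SCD at chr10:100346983-100347123 (plus strand where not stated). Capitals mark CCAAT or its reverse complement ATTGG and, in INSIG1, the reverse complement of CACNCCAC.
MVD: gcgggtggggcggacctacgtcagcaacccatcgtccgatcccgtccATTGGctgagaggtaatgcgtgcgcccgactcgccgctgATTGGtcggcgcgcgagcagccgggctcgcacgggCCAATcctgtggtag
MSMO1: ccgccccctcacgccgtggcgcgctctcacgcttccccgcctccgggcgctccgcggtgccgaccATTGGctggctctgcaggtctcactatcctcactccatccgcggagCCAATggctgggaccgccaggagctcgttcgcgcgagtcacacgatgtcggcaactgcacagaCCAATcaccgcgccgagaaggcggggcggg
NSDHL: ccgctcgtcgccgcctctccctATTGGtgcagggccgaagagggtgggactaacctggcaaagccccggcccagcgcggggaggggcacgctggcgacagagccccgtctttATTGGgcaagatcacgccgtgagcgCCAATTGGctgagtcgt
DHCR7: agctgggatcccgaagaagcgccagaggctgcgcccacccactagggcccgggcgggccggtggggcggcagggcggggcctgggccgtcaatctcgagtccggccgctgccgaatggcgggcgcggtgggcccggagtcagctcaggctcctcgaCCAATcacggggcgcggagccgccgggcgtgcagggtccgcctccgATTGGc
INSIG1: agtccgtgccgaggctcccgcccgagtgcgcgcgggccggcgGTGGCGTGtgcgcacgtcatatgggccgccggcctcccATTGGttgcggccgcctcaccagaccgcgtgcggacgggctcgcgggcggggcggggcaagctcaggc
SCD: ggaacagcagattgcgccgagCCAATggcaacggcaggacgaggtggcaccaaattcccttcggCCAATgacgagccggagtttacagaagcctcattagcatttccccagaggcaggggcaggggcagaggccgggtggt
The printed stretch held 3 matches of CCAAT in MVD, 3 in MSMO1, 4 in NSDHL, 2 in DHCR7, 1 in INSIG1 and 2 in SCD. The palindrome CCAATTGG in NSDHL reads CCAAT on both strands and counts as 2 of its 4. INSIG1 was the one stretch of these 6 with a core match, GTGGCGTG.

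Totals per library were 16474856 to 28079048 estimated counts, and values below are CPM, in which each count is divided by its library's TMM-adjusted total. SOX2 itself measured 418 to 467 CPM in the 5 SOX2-positive libraries, 1.85 to 5.99 CPM in the 5 SOX2-negative libraries, and 652 and 676 CPM in control. The 10 endoderm markers on a fixed list (SOX17, FOXA2, GATA6 and others) summed to 1067 to 1953 CPM in SOX2-negative libraries, 24.8 to 87.2 CPM in SOX2-positive libraries and 60.2 to 60.3 CPM in control, where SOX17 was at 0. The 9 mesoderm markers summed to 186 to 594, 12.9 to 62.1 and 36.0 to 51.3 CPM, and the 7 pluripotency markers to 2160 to 3361, 5254 to 6094 and 5988 to 6103 CPM in the same order. All 10 endoderm markers and 8 of 9 mesoderm markers were called higher in SOX2-negative cells, so these markers moved with the gate differences given below, and their part in those differences was not tested. Fewer cells of a type and less RNA per cell cannot be told apart in these bulk libraries. The 9 dissociation stress genes summed to 634 to 1655 CPM in SOX2-negative, 457 to 939 CPM in SOX2-positive and 358 to 476 CPM in control libraries, with 0 of 9 called between the gates (0 at an unadjusted p under 0.05). Against control, edgeR called 2 of the 9, JUN and JUNB, higher in SOX2-negative cells (5 at an unadjusted p under 0.05) and 0 in SOX2-positive cells (3 at an unadjusted p under 0.05), and all 9 had positive log2 fold changes in both comparisons. The 6 neural markers summed to 968 to 1130 CPM in control, 50.9 to 149 CPM in SOX2-positive and 24.9 to 103 CPM in SOX2-negative libraries. Of 5 tested, 3 and 4 were called lower than control in the 2 gates, with 0 higher. The 7 amnion and surface ectoderm markers summed to 316 to 390, 32.2 to 110 and 169 to 228 CPM. Between the gates all 7 were called, with 5 lower and 2 (GATA3 and ISL1) higher in SOX2-negative cells, so the sum does not show the direction of most of them. Against control, 5 were lower in SOX2-positive cells, and 4 lower and 2 higher in SOX2-negative cells. In SOX2-positive cells against control, 3 pluripotency markers (POU5F1, NANOG and TDGF1) were called higher and 1 (LIN28A) lower. Of the endoderm markers, 5 were higher and 3 lower there, and of the mesoderm markers 0 were higher and 3 lower, so the similar sums hide changes of single markers. Of all genes, 7.81% were called in that comparison. The part of all these genes in the differences from control given below was not tested.

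The SOX2-negative library of replicate 2 at 100 ng/ml stood apart from the others of its gate. It lay at -48.0 on the second principal component (16.3% of the variance), where the other 4 lay between -0.28 and 12.9. Its ratio to replicate 1 moved with the base composition of the transcripts, as the plot of replicate differences against GC content shows for the 30 genes. The 17 genes with a longest transcript of at least 50% GC had a median log2 ratio of 0.57, and the 13 below had -0.23, against 0.38 and -0.45 over all genes tested. In SOX2-negative cells at 1000 ng/ml the same ratio ran the other way, with -0.25 and 0.42 for the 30 genes and -0.24 and 0.19 over all genes. Counts of calls are given below also without replicate 2 at 100 ng/ml and without both of these second-repeat libraries.

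**Figure D1:**
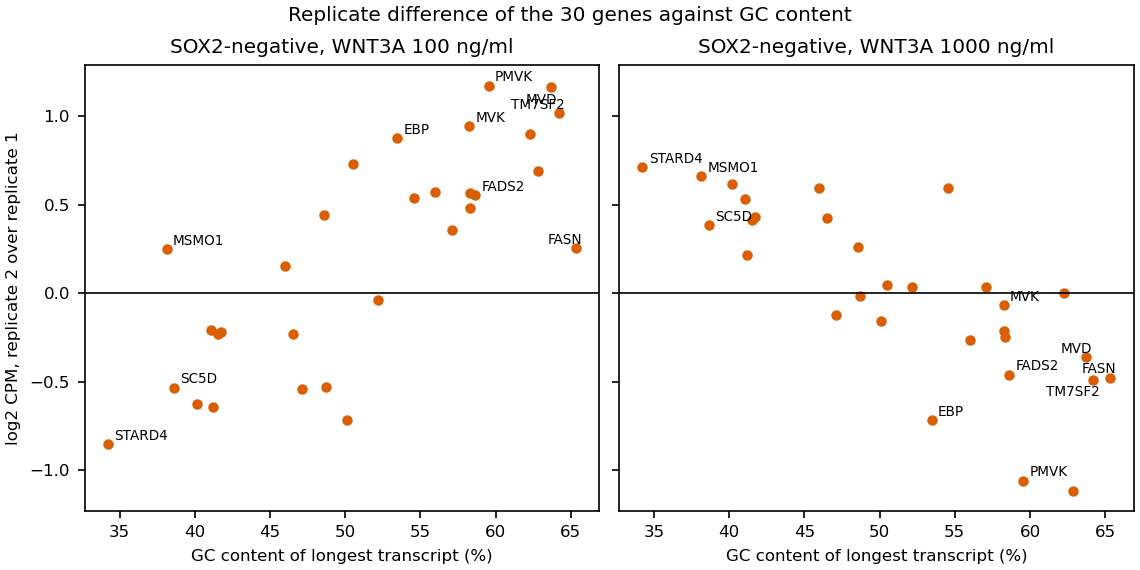
Each point is 1 of the 30 genes; the x axis is the GC content of its longest transcript in percent, and the y axis the log2 ratio of CPM in replicate 2 over replicate 1 of the SOX2-negative cells at 100 ng/ml (left) and 1000 ng/ml (right). Genes of at least 50% GC had a median of 0.57 on the left and -0.25 on the right.

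Summed over the 30 genes, transcripts of the synthesis pathways were highest in SOX2-negative cells. The sum was 5710 and 6404 CPM in control. In SOX2-positive cells it was 5727 and 5360 CPM at 100 ng/ml, 6396 CPM at 300 ng/ml, and 6679 and 5729 CPM at 1000 ng/ml. In SOX2-negative cells it was 7898 and 8617 CPM at 100 ng/ml, 9118 CPM at 300 ng/ml, and 9284 and 8545 CPM at 1000 ng/ml. The lowest SOX2-negative library thus lay above the highest SOX2-positive and the highest control library. Abundant genes weigh most in this sum. At 100 and 1000 ng/ml, FASN had a mean of 1912 CPM in SOX2-negative and 1009 CPM in SOX2-positive libraries. SCD had 1449 and 1020 CPM, and these were the 2 highest means of the 30 in each gate. As a share of all counts the 30 genes took 0.549% to 0.687% in SOX2-positive and control libraries and 0.775% to 0.915% in SOX2-negative libraries. Per kilobase of exon, SCD, the desaturase that makes oleate, had the highest mean level (270 CPM per kb in the 4 SOX2-negative libraries at 100 and 1000 ng/ml, 190 in SOX2-positive, 167 in control), followed by FASN (204, 108 and 130) and ACLY (100.0, 80.0 and 90.7). HSD17B7 (4.21 CPM per kb in SOX2-negative cells) and MVK (4.58) had the lowest.

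**Figure D2:**
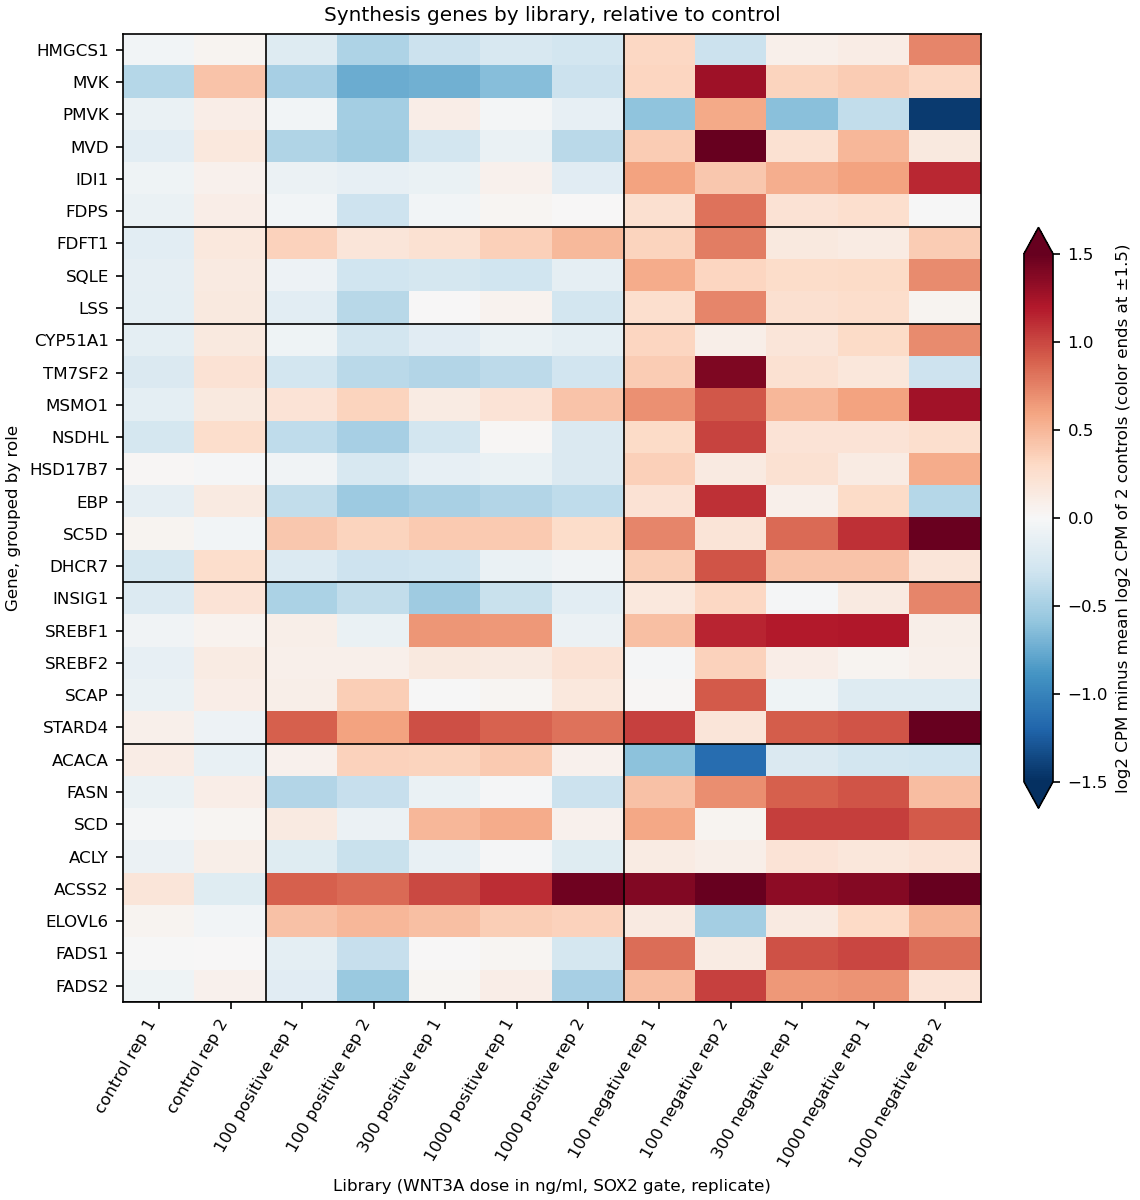
Rows are the 30 genes grouped by role (mevalonate, squalene and lanosterol, late sterol, regulators, fatty acids, from top to bottom), columns are the 12 libraries, and color is log2 CPM minus the mean log2 CPM of the 2 controls, with the scale ending at ±1.5. Most rows are red in the 5 SOX2-negative columns, ACACA is blue there, and ACSS2 and STARD4 are red in both gates.

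Between the gates, 17 of the 30 genes rose in SOX2-negative cells and 1, ACACA, fell, with an adjusted p under 0.05 in the edgeR quasi-likelihood test on the mean of 100 and 1000 ng/ml. That is 60% of the 30, where 24% of all 17047 genes tested were called (12.9% higher and 11.1% lower). At an unadjusted p under 0.05 it was 24 of the 30 genes and 36.1% of all genes. The median log2 fold change was 0.57 over the 30 genes and 0.01 over all genes. It also differed with GC content. For the 17 of the 30 genes with at least 50% GC it was 0.66, where it was 0.15 over all such genes. For the 13 below it was 0.51, where it was -0.11 over all such genes. By role, 3 of 6 mevalonate and isoprenoid genes, 2 of 3 squalene and lanosterol genes, 7 of 8 late sterol genes, 1 of 5 regulators and transfer proteins and 4 of 8 fatty acid genes rose. Of the 12 genes not called, 9 had a positive and 3 (PMVK, SREBF2 and ELOVL6) a negative log2 fold change.

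With 1 library left out, the median log2 fold change of the 30 genes was 0.48 to 0.61. The count depended most on the SOX2-positive libraries, and it also moved without either control or without some of the SOX2-negative libraries. It was 8 and 7 without replicate 1 or 2 of SOX2-positive cells at 100 ng/ml, and 9 without either replicate at 1000 ng/ml, with 15.6% to 18% of all genes called. Without replicate 2 of SOX2-negative cells at 100 ng/ml it was 18 (26% of all genes), and without both SOX2-negative libraries of the second repeat it was 17 (28.7%). The calls of MVK, MVD, IDI1, FASN, FADS1, FADS2 and ACACA held in each of 21 alternative analyses, and that of SQLE in 20. The other 10 called genes lost their calls in 4 to 14 of the 21, which in each case included leaving out at least 3 of the 4 SOX2-positive libraries and at least 1 SOX2-negative library.

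**Figure D3:**
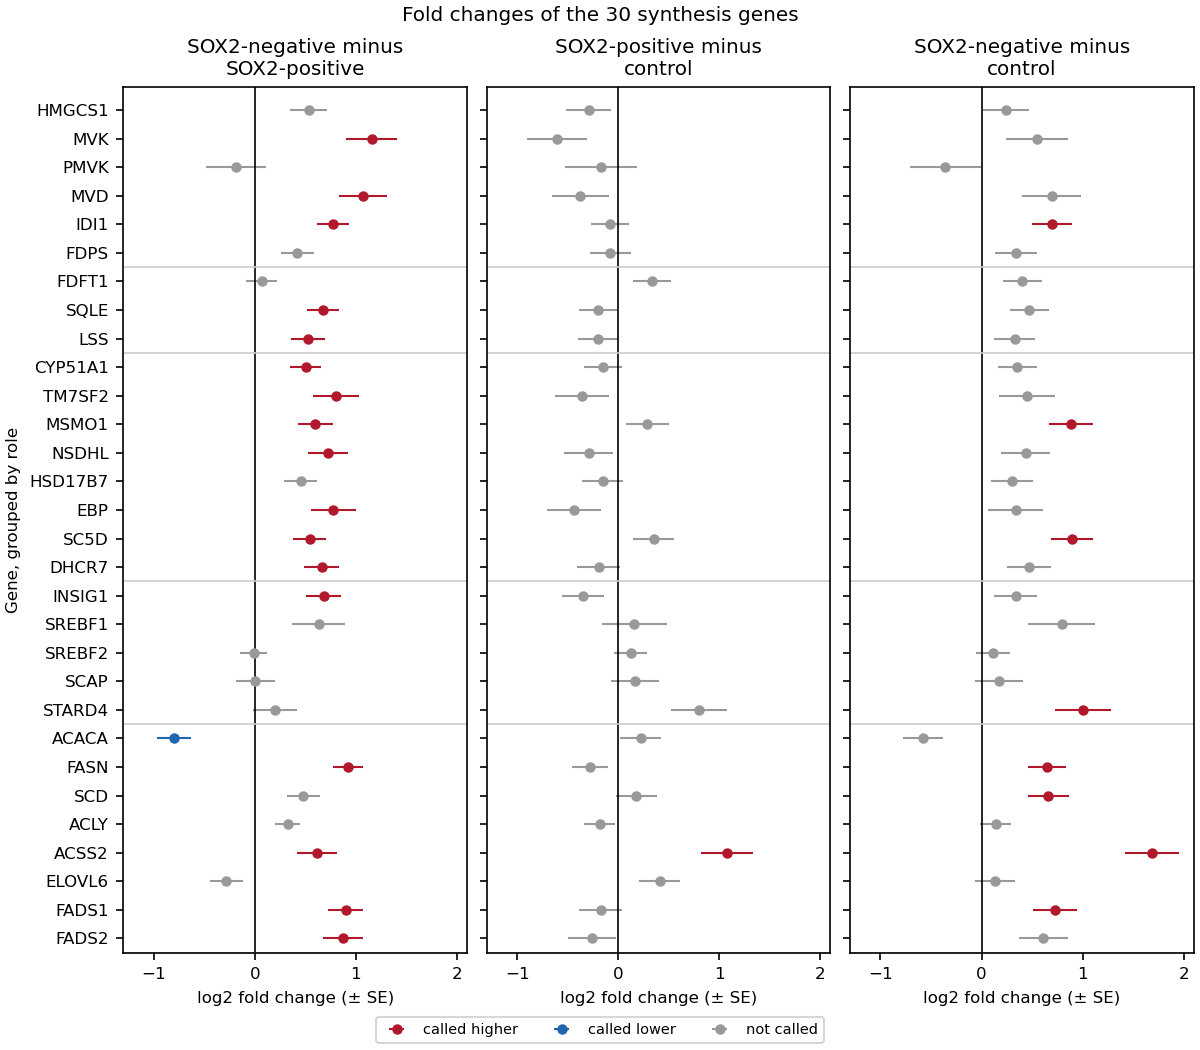
Points are log2 fold changes of the 30 genes with standard errors from the edgeR model, for SOX2-negative minus SOX2-positive (left), SOX2-positive minus control (middle) and SOX2-negative minus control (right), each over 100 and 1000 ng/ml. Red points were called higher, blue lower and gray not called; 18 points are colored on the left, 1 in the middle and 8 on the right.

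Within a repeat, the 2 gates of each dose were sorted from shared colonies, which gives 5 pairs of libraries. The pairs come from 2 repeats, so they are not 5 independent repeats, and the test above did not use the pairing. Of the 30 genes, 19 were higher in the SOX2-negative library of all 5 pairs, where 18.9% of all genes were. ACACA was the 1 gene lower in all 5, where 19% of all genes were. The median log2 difference of the 30 genes was 0.46 and 0.61 in the pairs at 100 ng/ml, 0.42 at 300 ng/ml, and 0.39 and 0.53 at 1000 ng/ml, and that of all genes was 0 in these pairs. For 14 of the 30 genes the 4 SOX2-negative libraries at 100 and 1000 ng/ml lay above the 4 SOX2-positive ones without overlap (13.5% of all genes), and for ACACA they lay below (13.1%).

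**Figure D4:**
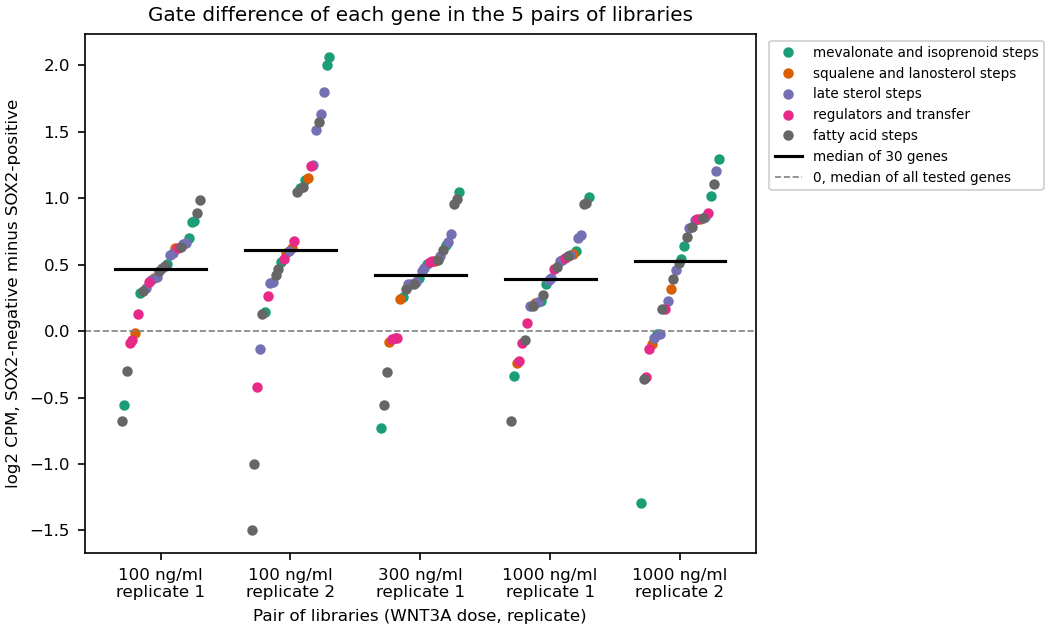
Each point is 1 of the 30 genes, ordered by value within a pair and colored by role; the y axis is log2 CPM of the SOX2-negative minus the SOX2-positive library of the same dose and repeat, and black bars are medians of the 30 genes. The medians lie between 0.39 and 0.61 in the 5 pairs, and the pair of replicate 2 at 100 ng/ml has the widest upper range.

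Among the mevalonate genes, MVK, MVD and IDI1 rose and HMGCS1, FDPS and PMVK were not called. MVK, the kinase that phosphorylates mevalonate, measured 13.5 and 11.4 CPM at 100 ng/ml, 11.6 CPM at 300 ng/ml, and 12.3 and 15.2 CPM at 1000 ng/ml in SOX2-positive cells. In SOX2-negative cells it measured 23.9 and 46.0 CPM at 100 ng/ml, 24.1 CPM at 300 ng/ml, and 24.9 and 23.8 CPM at 1000 ng/ml, and in control 14.2 and 25.7 CPM. The gates did not overlap, replicate 2 at 100 ng/ml was the highest library, and control replicate 2 lay within the SOX2-negative range. The log2 fold change between the gates was 1.16 ± 0.25 (SE, adjusted p = 0.00694), or 2.23-fold.

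MVD, the decarboxylase that forms isopentenyl diphosphate and whose start region is printed above, measured 37.9 and 36.2 CPM at 100 ng/ml, 43.0 CPM at 300 ng/ml, and 48.3 and 39.3 CPM at 1000 ng/ml in SOX2-positive cells. Its SOX2-negative values were 67.4 and 151 CPM at 100 ng/ml, 61.1 CPM at 300 ng/ml, and 73.6 and 57.3 CPM at 1000 ng/ml, and control had 46.4 and 58.0 CPM. Again each SOX2-negative library lay above each SOX2-positive one, with replicate 2 at 100 ng/ml far above the other 4. MVD rose by 1.07 ± 0.24 on the log2 scale (adjusted p = 0.00763), and the value over 21 alternatives was 0.72 to 1.29.

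IDI1, which interconverts the C5 isoprenoid units, measured 68.9 and 67.5 CPM at 100 ng/ml, 68.6 CPM at 300 ng/ml, and 76.6 and 65.3 CPM at 1000 ng/ml in SOX2-positive and 112 and 96.9 CPM at 100 ng/ml, 107 CPM at 300 ng/ml, and 111 and 161 CPM at 1000 ng/ml in SOX2-negative cells. It had 70.4 and 76.6 CPM in control, so both other groups lay below all 5 SOX2-negative libraries. Its log2 fold change was 0.78 ± 0.16 (adjusted p = 0.00473).

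HMGCS1, the synthase that makes HMG-CoA and the most abundant mevalonate gene per kilobase, measured 256 and 213 CPM at 100 ng/ml, 235 CPM at 300 ng/ml, and 249 and 241 CPM at 1000 ng/ml in SOX2-positive cells and 363 and 235 CPM at 100 ng/ml, 309.7 CPM at 300 ng/ml, and 318 and 489 CPM at 1000 ng/ml in SOX2-negative cells, with 286 and 301 CPM in control. Replicate 2 at 100 ng/ml was the SOX2-negative library that fell within the SOX2-positive range. HMGCS1 missed the threshold (0.53 ± 0.18, adjusted p = 0.0598) and passed it without that library; the adjusted p over the alternatives was 0.0026 to 0.214. FDPS, which makes farnesyl diphosphate, had 0.42 ± 0.16 (adjusted p = 0.0913). PMVK, the kinase after MVK, measured 11.0 and 24.9 CPM at 100 ng/ml, 10.8 CPM at 300 ng/ml, and 13.0 and 6.22 CPM at 1000 ng/ml in SOX2-negative cells, which spans both ends of the SOX2-positive range of 11.8 to 18.0 CPM, and had -0.19 ± 0.29 (adjusted p = 0.689).

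Of the genes that make squalene and lanosterol, SQLE and LSS rose and FDFT1 did not pass the test. FDFT1, the squalene synthase, measured 305 and 273 CPM at 100 ng/ml, 279.9 CPM at 300 ng/ml, and 308 and 335 CPM at 1000 ng/ml in SOX2-positive cells, 302 and 409.6 CPM at 100 ng/ml, 265 CPM at 300 ng/ml, and 261 and 313 CPM at 1000 ng/ml in SOX2-negative cells and 215 and 267 CPM in control. Its gates overlapped, with a log2 fold change of 0.07 ± 0.15 (adjusted p = 0.79). A second identifier of this symbol held 54.1% of the summed count.

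SQLE, the epoxidase that commits squalene to sterols, measured 129 and 110.5 CPM at 100 ng/ml, 113 CPM at 300 ng/ml, and 111 and 124 CPM at 1000 ng/ml in SOX2-positive cells and 199 and 170.1 CPM at 100 ng/ml, 164 CPM at 300 ng/ml, and 165 and 222 CPM at 1000 ng/ml in SOX2-negative cells, with 123 and 149 CPM in control. All 5 SOX2-negative libraries lay above the other 7. Its log2 fold change was 0.67 ± 0.16 (adjusted p = 0.00939, and 0.0572 without replicate 2 of SOX2-positive cells at 100 ng/ml, the highest of 21 alternatives, of which the lowest was 0.000283). LSS, which closes the ring to lanosterol, had 0.53 ± 0.17 (adjusted p = 0.0413); its lowest SOX2-negative library, replicate 2 at 1000 ng/ml with 160.6 CPM, did not clear the highest SOX2-positive library with 160.9 CPM. With the replicate number as a block, LSS lost its call and SCD, described below, gained one.

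Of the 8 late sterol enzymes 7 rose. Each of the 8 had a positive log2 fold change between the gates, from 0.45 for HSD17B7 to 0.80 for TM7SF2, and HSD17B7 alone was not called (adjusted p = 0.074). MSMO1, the oxidase that removes methyl groups at C4, measured 115 and 126 CPM at 100 ng/ml, 108 CPM at 300 ng/ml, and 115 and 134 CPM at 1000 ng/ml in SOX2-positive cells. It measured 160.3 and 190.3 CPM at 100 ng/ml, 140.4 CPM at 300 ng/ml, and 151 and 239 CPM at 1000 ng/ml in SOX2-negative cells and 90.2 and 110.1 CPM in control. The SOX2-negative libraries lay above all others, and both controls lay below the 4 SOX2-positive libraries at 100 and 1000 ng/ml, with 0.60 ± 0.17 between the gates (adjusted p = 0.0296).

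SC5D, a desaturase of the last steps, measured 89.6 and 85.4 CPM at 100 ng/ml, 89.1 CPM at 300 ng/ml, and 89.0 and 81.9 CPM at 1000 ng/ml in SOX2-positive cells, 112 and 77.6 CPM at 100 ng/ml, 122 CPM at 300 ng/ml, and 145 and 189 CPM at 1000 ng/ml in SOX2-negative cells and 69.9 and 65.6 CPM in control. Replicate 2 at 100 ng/ml was its lowest SOX2-negative library and fell below the 5 SOX2-positive ones, while the other 4 lay above them. SC5D rose by 0.54 ± 0.16 on the log2 scale (adjusted p = 0.0324).

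TM7SF2, a sterol reductase, measured 68.3 and 62.5 CPM at 100 ng/ml, 60.9 CPM at 300 ng/ml, and 62.8 and 67.5 CPM at 1000 ng/ml in SOX2-positive cells, 107 and 218 CPM at 100 ng/ml, 96.7 CPM at 300 ng/ml, and 93.3 and 66.5 CPM at 1000 ng/ml in SOX2-negative cells and 71.3 and 95.9 CPM in control. EBP, the isomerase of the sterol ring, measured 46.2 and 40.9 CPM at 100 ng/ml, 42.6 CPM at 300 ng/ml, and 44.0 and 46.0 CPM at 1000 ng/ml in SOX2-positive cells, 69.4 and 127 CPM at 100 ng/ml, 63.1 CPM at 300 ng/ml, and 72.8 and 44.3 CPM at 1000 ng/ml in SOX2-negative cells and 54.2 and 65.7 CPM in control. Both genes had their highest value in SOX2-negative replicate 2 at 100 ng/ml and their lowest SOX2-negative value in replicate 2 at 1000 ng/ml, which lay within the SOX2-positive range. TM7SF2 changed by 0.80 ± 0.22 (adjusted p = 0.0248) and EBP by 0.78 ± 0.22 (adjusted p = 0.0265). The EBP call was lost without SOX2-negative replicate 2 at 100 ng/ml, and its adjusted p ran from 0.000434 to 0.115 over the alternatives. TM7SF2 shares exonic sequence with VPS51 on the same strand, so the split of reads between them is uncertain.

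NSDHL, a dehydrogenase that works after MSMO1, had 0.73 ± 0.20 (adjusted p = 0.0219), with 18.8 to 26.8 CPM in SOX2-positive and 30.5 to 53.6 CPM in SOX2-negative libraries. DHCR7, the reductase that forms cholesterol from 7-dehydrocholesterol, had 0.66 ± 0.18 (adjusted p = 0.0197), with 98.9 to 119 CPM and 139 to 236 CPM in the same order. CYP51A1, the demethylase of lanosterol, had 0.51 ± 0.15 (adjusted p = 0.0357), with 66.9 to 77.3 CPM and 86.0 to 132 CPM. The gates of these 3 genes did not overlap in any of the 10 treated libraries. CYP51A1 shares exonic sequence with 2 other annotated genes on the same strand, so the split of reads between them is uncertain.

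**Figure D5:**
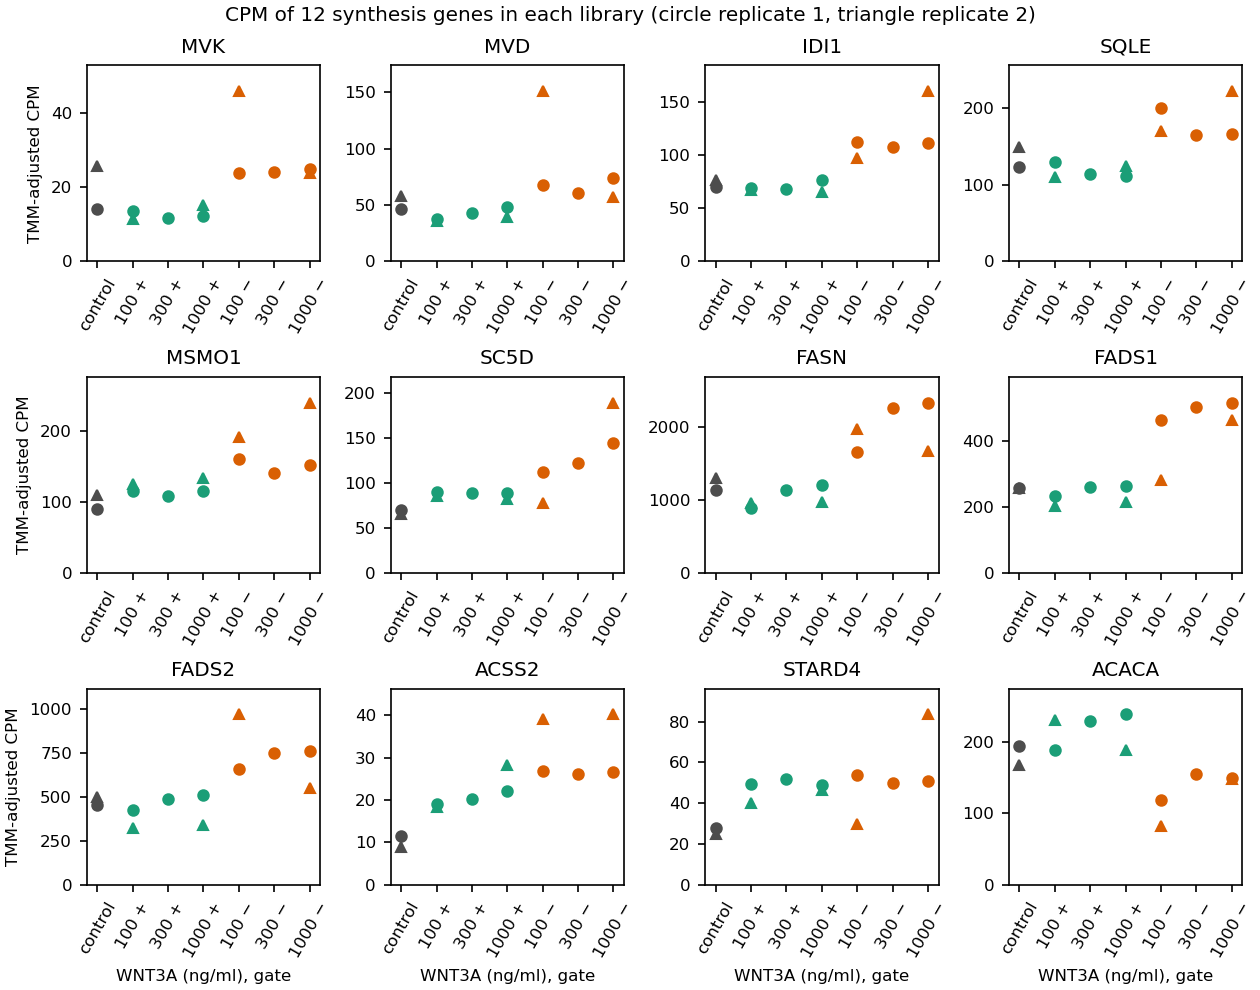
TMM-adjusted CPM of 12 of the genes in each library (circles replicate 1, triangles replicate 2), with control in gray, SOX2-positive in green and SOX2-negative in orange, by WNT3A dose in ng/ml; each axis starts at 0. ACSS2 and STARD4 are lowest in the 2 controls, ACACA is lowest in SOX2-negative cells, and MVK, MVD and FADS2 have their highest value in SOX2-negative replicate 2 at 100 ng/ml.

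Among the regulators, INSIG1 rose and both SREBF genes and SCAP did not pass the test. INSIG1, itself a known target of the SREBF proteins, measured 39.9 and 42.9 CPM at 100 ng/ml, 38.0 CPM at 300 ng/ml, and 43.8 and 49.6 CPM at 1000 ng/ml in SOX2-positive cells, 61.7 and 68.7 CPM at 100 ng/ml, 54.5 CPM at 300 ng/ml, and 60.7 and 91.7 CPM at 1000 ng/ml in SOX2-negative cells and 47.9 and 63.8 CPM in control. The gates did not overlap, and control replicate 2 lay within the SOX2-negative range, with 0.68 ± 0.17 between the gates (adjusted p = 0.0156). SREBF2, the factor best known for driving cholesterol genes, measured 452 and 451 CPM at 100 ng/ml, 474 CPM at 300 ng/ml, and 469 and 497 CPM at 1000 ng/ml in SOX2-positive cells, 424 and 542 CPM at 100 ng/ml, 458 CPM at 300 ng/ml, and 441 and 452 CPM at 1000 ng/ml in SOX2-negative cells and 392 and 466 CPM in control. Its gates overlapped, and its log2 fold change was -0.01 ± 0.13 (adjusted p = 0.978), with -0.14 to 0.06 over the alternatives.

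SREBF1, best known for driving fatty acid genes, varied widely between replicates and was not called. It measured 105 and 92.7 CPM at 100 ng/ml, 157 CPM at 300 ng/ml, and 155 and 93.4 CPM at 1000 ng/ml in SOX2-positive cells, 136 and 219 CPM at 100 ng/ml, 226 CPM at 300 ng/ml, and 228 and 105 CPM at 1000 ng/ml in SOX2-negative cells and 95.2 and 103 CPM in control. In each of the 5 pairs the SOX2-negative library was higher, yet replicate 2 at 1000 ng/ml in SOX2-negative cells lay below 3 SOX2-positive libraries. The log2 fold change was 0.63 ± 0.26 (adjusted p = 0.109); without SOX2-negative replicate 1 at 100 ng/ml, or without replicate 2 at 1000 ng/ml, it passed the threshold, and the adjusted p ran from 0.0045 to 0.461. SCAP had 0.01 ± 0.19 (adjusted p = 0.992), with 262 CPM in SOX2-negative replicate 2 at 100 ng/ml and 121 to 180 CPM in the other 9 treated libraries. The deposited values are transcript levels, and SREBF cleavage was not measured.

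STARD4, which carries cholesterol between membranes, measured 49.4 and 40.2 CPM at 100 ng/ml, 51.6 CPM at 300 ng/ml, and 48.9 and 46.6 CPM at 1000 ng/ml in SOX2-positive cells, 54.0 and 29.96 CPM at 100 ng/ml, 49.8 CPM at 300 ng/ml, and 50.9 and 83.6 CPM at 1000 ng/ml in SOX2-negative cells and 28.0 and 25.0 CPM in control. Its gates overlapped (0.20 ± 0.22, adjusted p = 0.545), and all 10 treated libraries lay above both controls.

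In the fatty acid branch, FASN, FADS1, FADS2 and ACSS2 rose and ACACA fell, so the enzymes on either side of malonyl-CoA changed in opposite directions. ACACA, the acetyl-CoA carboxylase, measured 189 and 231 CPM at 100 ng/ml, 229 CPM at 300 ng/ml, and 239 and 189 CPM at 1000 ng/ml in SOX2-positive cells, 118 and 81.8 CPM at 100 ng/ml, 156 CPM at 300 ng/ml, and 149 and 148 CPM at 1000 ng/ml in SOX2-negative cells and 195 and 168 CPM in control. All 5 SOX2-negative libraries lay below the other 7, and replicate 2 at 100 ng/ml was the lowest. ACACA fell by 0.80 ± 0.16 on the log2 scale (adjusted p = 0.00532), or 1.74-fold, and its log2 fold change ran from -1.16 to -0.68 over the alternatives.

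FASN, the fatty acid synthase, measured 894 and 957 CPM at 100 ng/ml, 1138 CPM at 300 ng/ml, and 1207 and 977 CPM at 1000 ng/ml in SOX2-positive cells, 1656 and 1976 CPM at 100 ng/ml, 2262 CPM at 300 ng/ml, and 2337 and 1678 CPM at 1000 ng/ml in SOX2-negative cells and 1133 and 1307 CPM in control. Each SOX2-negative library lay above each of the other 7. Its log2 fold change was 0.93 ± 0.15 (adjusted p = 0.00119), or 1.90-fold, the smallest adjusted p among the 30 genes. SCD measured 981 and 843 CPM at 100 ng/ml, 1263 CPM at 300 ng/ml, and 1316 and 938 CPM at 1000 ng/ml in SOX2-positive cells, 1342 and 920.4 CPM at 100 ng/ml, 1832 CPM at 300 ng/ml, and 1843 and 1691 CPM at 1000 ng/ml in SOX2-negative cells and 877 and 912 CPM in control. In SOX2-negative cells, replicate 2 at 100 ng/ml fell within the SOX2-positive range, and the other 4 libraries lay above it. SCD missed the threshold (0.48 ± 0.16, adjusted p = 0.0546) and passed it in 9 of 21 alternatives, among them without that library, without SOX2-positive replicate 1 at 1000 ng/ml and with the replicate number as a block, with adjusted p from 0.0047 to 0.195.

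FADS1 and FADS2, the desaturases of polyunsaturated fatty acids, lie side by side on chromosome 11. FADS1 measured 235 and 204 CPM at 100 ng/ml, 259.9 CPM at 300 ng/ml, and 266 and 215 CPM at 1000 ng/ml in SOX2-positive cells, 465 and 282 CPM at 100 ng/ml, 504 CPM at 300 ng/ml, and 517 and 464 CPM at 1000 ng/ml in SOX2-negative cells and 259 and 259.6 CPM in control. FADS2 measured 427 and 326 CPM at 100 ng/ml, 489.9 CPM at 300 ng/ml, and 515 and 339.6 CPM at 1000 ng/ml in SOX2-positive cells, 662 and 972 CPM at 100 ng/ml, 749 CPM at 300 ng/ml, and 763 and 555 CPM at 1000 ng/ml in SOX2-negative cells and 457 and 503 CPM in control. The gates did not overlap for either gene, and replicate 2 at 100 ng/ml was the lowest SOX2-negative library for FADS1 and the highest for FADS2. FADS1 rose by 0.90 ± 0.17 (adjusted p = 0.0036) and FADS2 by 0.87 ± 0.20 (adjusted p = 0.00832) on the log2 scale. Their exons overlap on opposite strands, and no strand setting is given, so reads of the shared stretch cannot be assigned with certainty. The same holds for MVK and its neighbor MMAB. On the same strand, FADS2 also shares exonic sequence with FEN1 and FADS1 with MIR1908, so the split of those reads is uncertain as well.

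ACSS2, which makes acetyl-CoA from acetate, measured 19.1 and 18.4 CPM at 100 ng/ml, 20.3 CPM at 300 ng/ml, and 22.1 and 28.2 CPM at 1000 ng/ml in SOX2-positive cells, 26.9 and 39.0 CPM at 100 ng/ml, 26.0 CPM at 300 ng/ml, and 26.7 and 40.2 CPM at 1000 ng/ml in SOX2-negative cells and 11.6 and 9.04 CPM in control. The gates overlapped through SOX2-positive replicate 2 at 1000 ng/ml, and both controls lay below all 10 treated libraries. Between the gates ACSS2 had 0.61 ± 0.20 (adjusted p = 0.0474), a call that was lost in 14 of 21 alternatives. ACLY, which makes acetyl-CoA from citrate, measured 374 to 465 CPM in SOX2-positive and 500.2 to 544 CPM in SOX2-negative cells without overlap and was not called (0.32 ± 0.12, adjusted p = 0.0847). ELOVL6, the elongase of palmitate, was not called either (-0.28 ± 0.16, adjusted p = 0.242).

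Against control, 1 of the 30 genes rose in SOX2-positive cells and 8 rose in SOX2-negative cells, with none called lower in either comparison (edgeR quasi-likelihood test; 2 and 13 genes had an unadjusted p under 0.05, where 21% and 34.8% of all genes did). The share of all genes called was 7.81% for SOX2-positive cells (4.65% higher, 3.17% lower) and 22.5% for SOX2-negative cells (12.4% higher, 10.1% lower). The 8 are 26.7% of the 30, close to the share over all genes. The median log2 fold change of the 30 genes was -0.16 in SOX2-positive cells and 0.44 in SOX2-negative cells, against 0.01 and 0.03 over all genes. Both comparisons share the 2 control libraries, and each shares treated libraries with the comparison of the gates, so their values are given side by side. As the labels name no gate for the control, differences from control may also hold a difference between sorted and unsorted cells, and the 2 cannot be told apart here.

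ACSS2 was the 1 gene that edgeR called in both, while DESeq2 called ACSS2 and STARD4 in both. ACSS2 rose by 1.08 ± 0.26 in SOX2-positive cells (adjusted p = 0.0298, 2.11-fold) and by 1.69 ± 0.27 in SOX2-negative cells (adjusted p = 0.00113, 3.22-fold) on the log2 scale. The first call was lost without either control library, either SOX2-positive library at 100 ng/ml or SOX2-positive replicate 2 at 1000 ng/ml, with adjusted p from 0.00179 to 0.343 over all alternatives. The second held in each of the 21. STARD4 had log2 fold changes of 0.80 ± 0.28 in SOX2-positive cells (adjusted p = 0.115) and 1.00 ± 0.28 in SOX2-negative cells (adjusted p = 0.026), so edgeR called the second and not the first. The second call was lost in 4 of the 21 alternatives, among them without either control library and without SOX2-negative replicate 2 at 1000 ng/ml. The difference between these was the gate comparison above, in which STARD4 was not called.

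The other 6 genes called in SOX2-negative cells against control were SC5D, MSMO1, IDI1, FADS1, SCD and FASN. SC5D rose by 0.89 ± 0.21 (adjusted p = 0.01), MSMO1 by 0.89 ± 0.22 (adjusted p = 0.0152) and FADS1 by 0.72 ± 0.22 (adjusted p = 0.0356). IDI1 rose by 0.70 ± 0.20 (adjusted p = 0.0277), SCD by 0.66 ± 0.20 (adjusted p = 0.0399) and FASN by 0.65 ± 0.19 (adjusted p = 0.0309). Of the 21 alternatives, 2 ended the call of SC5D, 3 that of MSMO1, 6 that of IDI1, 8 that of FASN and 9 each that of SCD and FADS1. Leaving out either control library ended all 6 calls, and leaving out either SOX2-positive library at 100 ng/ml or at least 1 of the SOX2-negative libraries at 1000 ng/ml ended those of IDI1, FASN, SCD and FADS1. With the GC offset the value for FASN was 0.32, and 0.31 with the replicate block added, neither of them called. In SOX2-positive cells against control the same 6 genes had log2 fold changes of 0.35, 0.29, -0.17, -0.08, 0.18 and -0.28, none of them called. ACACA had 0.22 ± 0.20 in SOX2-positive and -0.58 ± 0.20 in SOX2-negative cells (adjusted p = 0.596 and 0.06).

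The count of 8 rested on few libraries. It was 1 without either control library (10.3% and 10.9% of all genes), 4 without either SOX2-positive library at 100 ng/ml (19.1% and 19.2%) and 5 without either SOX2-negative library at 1000 ng/ml (18.2% and 19.6%). Without SOX2-negative replicate 1 at 100 ng/ml, which leaves that dose to the library that stood apart, it was 18 (35.9% of all genes). It was 9 without replicate 2 at 100 ng/ml (27.7%) and 9 without both second-repeat SOX2-negative libraries (29.8%). In SOX2-positive cells against control the same 2 settings gave 2 genes (14.4% of all genes) and 4 genes (18.4%). For 12 of the 30 genes the 4 SOX2-negative libraries lay above both controls (21% of all genes), and for ACACA they lay below (20%). In SOX2-positive cells, 6 genes lay above both controls (22.5% of all genes) and 4 below (22.3%): FDFT1, MSMO1, SC5D, STARD4, ACSS2 and ELOVL6 were above, and HMGCS1, TM7SF2, HSD17B7 and EBP below.

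No gene passed the test for the WNT3A dose. Between 1000 and 100 ng/ml, 0 of the 30 genes and 0% of all genes were called in SOX2-positive cells, in SOX2-negative cells, or in the difference of the dose effect between the gates (edgeR quasi-likelihood test, Benjamini-Hochberg). At an unadjusted p under 0.05 the counts were 0, 8 and 2 of the 30 genes, with 1.72%, 18.2% and 7.91% of all genes. DESeq2 called 0, 1 and 0 of the 30, and the 1 was SC5D. In SOX2-negative cells SC5D had a log2 fold change of 0.81 ± 0.23 from 100 to 1000 ng/ml and TM7SF2 had -1.03 ± 0.32 (adjusted p = 0.246 for both). Replicate 2 at 100 ng/ml was the lowest SOX2-negative library for SC5D and the highest for TM7SF2. Without replicate 1 at 100 ng/ml, which leaves this library alone at its dose and assumes that it varies like the other groups, 15 of the 30 genes and 33.7% of all genes were called in SOX2-negative cells, and 9 of the 30 and 22.3% of all genes in the difference between the gates. Without replicate 2 at 100 ng/ml, or without both second-repeat SOX2-negative libraries, edgeR called 0 of the 30 in each of the 3 dose comparisons. At an unadjusted p under 0.05 the first setting gave 0, 1 and 1 genes and the second 0, 2 and 0. The single libraries at 300 ng/ml lay between or beside those of the other doses for SC5D (89.1 CPM in SOX2-positive and 122 CPM in SOX2-negative cells) and FASN (1138 and 2262 CPM), and have no replicate.

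Neighboring steps of the pathway were read from lists of other genes. Of 15 tested genes of other sterol and isoprenoid steps, 2 rose between the gates and 2 fell, 26.7% where 24% of all genes were called. ACAT2, which condenses acetyl-CoA in the cytosol, rose by 0.78 ± 0.14 (adjusted p = 0.0025), and its mitochondrial relative ACAT1 fell by 0.78 ± 0.19 (adjusted p = 0.0115) on the log2 scale. ERG28, a scaffold of the sterol enzymes, rose by 0.73 ± 0.16 (adjusted p = 0.00806), and PDSS2, which acts in ubiquinone synthesis, fell by 0.70 ± 0.16 (adjusted p = 0.00858). MBTPS1, the protease that makes the first cut in SREBF processing, rose by 0.48 ± 0.13 (adjusted p = 0.0218).

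Genes of sterol uptake, transport, storage and efflux changed in both directions, with 4 of 20 higher and 4 lower between the gates (40%, where 24% of all genes were called). Against control, 7 of the 20 were called in SOX2-positive cells (35%, with 7.81% of all genes) and 9 in SOX2-negative cells (45%, with 22.5%). VLDLR, a lipoprotein receptor, measured 6.15 and 9.81 CPM in control, 47.2 to 89.3 CPM in SOX2-positive and 10.6 to 21.4 CPM in SOX2-negative cells. SOAT1, which esterifies cholesterol for storage, ran the other way, with 111 and 93.0 CPM in control, 7.46 to 12.2 CPM in SOX2-positive and 27.8 to 50.4 CPM in SOX2-negative cells. Neither gene overlapped between the gates. VLDLR fell by 2.19 ± 0.23 from SOX2-positive to SOX2-negative cells (adjusted p = 6.33e-05) and SOAT1 rose by 1.94 ± 0.18 (adjusted p = 2.68e-05). Against control, VLDLR rose by 3.03 ± 0.32 (adjusted p = 0.000543) and SOAT1 fell by 3.31 ± 0.20 (adjusted p = 4.40e-05) in SOX2-positive cells. Between the gates OSBPL10, an oxysterol-binding protein, fell by 2.15 ± 0.19 (adjusted p = 2.03e-05) and CYP46A1, the sterol 24-hydroxylase, by 1.81 ± 0.42 (adjusted p = 0.00946).

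Of 20 further genes of fatty acid elongation, desaturation and activation, 4 rose and 3 fell between the gates (35%, where 24% of all genes were called). SCD5, a second oleate-forming desaturase, rose by 2.08 ± 0.27 (adjusted p = 0.000311) from a low level of 1.09 to 3.21 CPM in SOX2-positive cells to 5.77 to 12.1 CPM. ELOVL1, an elongase of very long chains, rose by 0.83 ± 0.16 (adjusted p = 0.00398), and ELOVL7, another elongase, fell by 1.77 ± 0.23 (adjusted p = 0.000297). ACSS1, the mitochondrial counterpart of ACSS2, fell as well (adjusted p = 0.0241) and was close to 0 in SOX2-negative cells, with 0 to 0.21 CPM against 0.70 to 2.28 CPM in SOX2-positive cells. In fatty acid oxidation 1 of 17 genes, ACADM, the medium-chain dehydrogenase, rose between the gates, 5.88% where 24% of all genes were called. Its log2 fold change was 0.75 ± 0.17 (adjusted p = 0.00951).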

How the data were processed

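Poly-A RNA of 12 libraries was sequenced as paired ends, per the labels' protocols. The authors deposited a table of estimated counts, 1 column for each library, with no scaling between libraries. The submitters' processing notes name Salmon and GRCh38; a Salmon version, annotation release and strand setting are not given in the sources used here.

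Rows that share a symbol were summed and rounded (1034 symbols have several identifiers). The test was the two-sided quasi-likelihood test of edgeR 4.0.16 (R 4.3.3) after TMM scaling and the filter filterByExpr (count of at least 10, total of at least 15, by group). P-values were adjusted by Benjamini-Hochberg over 17047 symbols, with calls at 0.05. The model held the 12 libraries and 7 group means (5 residual degrees of freedom) and no block. Each gate is the mean of 100 and 1000 ng/ml; the single libraries at 300 ng/ml inform no comparison. The 30 genes and all other lists were chosen with earlier results of these data known. Values in every library are printed for the up to 12 called genes with the largest log2 fold change and the most abundant gene of each role; from each other list up to 4 called genes are named, and other genes whose values are printed were chosen after they were seen.

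The series description gives the pairing by repeat. As a check, the correlation between same-numbered libraries, each taken as its deviation from the group mean, was -0.06 to 0.223 in 10 pairs of groups and over 0.1 in 5. No replicates were near-identical: the chi-square between them, divided by its degrees of freedom, was 20.9 to 128. The script was tested on simulated data. DESeq2 1.42.0, other scalings, filters and sample sets, and a GC offset were the alternatives. Gene coordinates, exon overlaps and GC content come from GENCODE 29 and start regions from RefSeq on GRCh38.p14. Some genes of these pathways are not reported here.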

Additional observations from a re-analysis of the deposited data

Results flagged for a closer look

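In the 4 SOX2-negative libraries at 100 and 1000 ng/ml, MVK and NSDHL each had 1 library far from the other 3. In both cases it was replicate 2 at 100 ng/ml, the library that stood apart on the second principal component, with 46.0 CPM of MVK and 53.6 CPM of NSDHL. On the scale of log2 CPM, the gap to the nearest library was 0.927 and 0.902 of the whole range, above Dixon's critical value of 0.829 for 4 samples. The 30 genes in 2 gates make 60 such checks, and chance flags about 5% of groups.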

How the results depend on the processing

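No result reversed. Between the gates, 7 of the 18 calls held in all 21 alternatives. Leaving out 1 library gave a median log2 fold change of 0.48 to 0.61 over the 30 genes, and the other settings gave 13 to 22 calls. For SOX2-positive cells against control, where 1 gene was called, DESeq2, no filter on low counts, the GC offset without a block and the GC offset with the replicate block each gave 2, the fit of only the compared groups gave 5, leaving out both SOX2-negative libraries of the second repeat gave 4, and leaving out 1 library gave 0 to 2. For SOX2-negative cells against control, with 8, only the compared groups gave 2 and leaving out 1 library gave 1 to 18. For the dose in SOX2-negative cells, with 0, DESeq2 gave 1, no filter gave 2 and leaving out 1 library gave 0 to 15; for the difference of the dose effect, leaving out 1 library gave 0 to 9; in SOX2-positive cells each setting gave 0. Between the gates, the 13 calls stood beside 23.3% of all genes and the 22 beside 32.1%. For SOX2-positive cells against control, DESeq2 called 12.3% of all genes and no filter 9.45%. The GC offset gave 12.8% without and 15.2% with the block. Fits of only the compared groups gave 20.7% there and 17.8% for SOX2-negative cells against control. For the dose in SOX2-negative cells DESeq2 called 2.86% and no filter 6.79%. The cause of the shifts in the counts was not tested, and a fit with fewer libraries has fewer residual degrees of freedom. With the replicate number as a block, which the pairing allows, 18, 1, 8, 0, 0 and 0 genes were called in the 6 comparisons. The shares of all genes called were 24.1%, 8.29%, 22.8%, 0%, 0.00587% and 0%. The GC offset and leaving out both second-repeat libraries were chosen after seeing the data. Over the printed genes and alternatives, the outcome, called or not called, stayed the same in 665 checks. A call was lost in 127 checks and gained in 27. The number of libraries, at most 2 per group, limits the precision.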

Other observations

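Genes of triglyceride and lipid droplet formation also differed between the gates, with 5 of 13 higher and 1 lower in SOX2-negative cells (46.2%, where 24% of all genes were called). DGAT2, which adds the last acyl chain of a triglyceride, measured 3.95 to 11.4 CPM in SOX2-positive and 10.9 to 30.9 CPM in SOX2-negative libraries, with 17.0 and 17.7 CPM in control. LPIN1, a phosphatidate phosphatase, measured 15.7 to 23.8 CPM and 17.4 to 57.1 CPM in the same order. FABP5, a fatty acid carrier, measured 55.4 to 91.1 CPM and 122 to 168 CPM without overlap, and its relative FABP3 2.00 to 4.17 CPM and 0.59 to 1.58 CPM. The log2 fold changes were 1.23 ± 0.34 for DGAT2, 0.99 ± 0.24 for LPIN1, 0.87 ± 0.15 for FABP5 and -1.49 ± 0.35 for FABP3 (edgeR quasi-likelihood test, adjusted p = 0.0243, 0.0136, 0.00185 and 0.0108). Against control, 0 of these 13 genes were called in SOX2-positive cells (7.81% of all genes were; 3 of the 13 and 21% of all genes had an unadjusted p under 0.05). In SOX2-negative cells 3 rose and 2 fell (38.5%, where 22.5% of all genes were called).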
